A study of Mus musculus with 8 samples.

Results

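Runx1, Runx2 and Runx3 encode the 3 mammalian RUNX transcription factors, and Cbfb encodes CBFβ, the partner that all of them bind. The 4 genes were taken with every accessible region whose summit lay inside the gene body or within 100 kb of it, on the mouse assembly mm10. Of 60835 regions found in at least 1 sample group, 118 met this rule, of which 37 were at Runx1, 33 at Runx2, 26 at Runx3 and 22 at Cbfb. No measured value entered the rule. Accessibility had been mapped by ATAC-seq, in which the transposase Tn5 inserts sequencing adapters into DNA that is not covered by nucleosomes. The cells were group 2 innate lymphoid cells (ILC2s), which make type 2 cytokines, taken from the thymus of plck-Id1 mice of strain C57BL/6. Their age was not given in the sources used here. In these mice the Lck promoter, active in the T cell lineage, drives Id1, an inhibitor of the E protein transcription factors, so all the groups carried the Id1 transgene. The cells had received a MIGR1 retrovirus that carried either GFP with E47-ER, an E protein fused to an estrogen receptor domain, or GFP alone, and had been sorted for GFP. They were grown with IL-7, IL-25 and IL-33. All of them then received 4-hydroxytamoxifen, the ligand that releases E47-ER into the nucleus. The groups were E47 cells at 16 h, GFP cells at 16 h, E47 cells at 4 h and GFP cells at 4 h, each with 2 samples.

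RUNX proteins bind DNA through their Runt domain, and CBFβ, which does not touch DNA itself, makes that binding tighter. Each Runx gene has a distal promoter, P1, and a proximal promoter, P2, whose transcripts encode different amino termini. Runx1 is needed for definitive blood formation and acts in early thymocytes, Runx3 acts in CD8 T cells and in innate lymphoid cells including ILC2s, and Runx2 is best known for bone formation.

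The authors deposited 1 peak list per group, made from both of its samples, so no spread between samples could be measured and no difference given here was tested. The labels leave unstated if a group's 2 samples were grown as separate cultures. The sample titles and the transduction labels set the groups used here. The free-text descriptions of the samples go against them, since they give the empty vector for every replicate 1 and the E47-ER vector for every replicate 2. Regions numbered 40649 for E47 cells against 52846 for GFP cells at 16 h, and 49811 for E47 cells against 42665 for GFP cells at 4 h. The longer list thus belonged to GFP cells at 16 h and to E47 cells at 4 h, and the read depth behind each list is unknown. Regions called within 1 kb of the ends of ILC2 marker genes were found for 7 to 8 of 10 markers in the 4 lists, and Rora was without such a region in all of them. The T cell markers had 3 to 4 of 8, with Cd3d, Cd4 and Lat called in every list. B cell markers had 1 to 2 of 6, myeloid markers 1 to 2 of 5, NK and ILC1 markers 0 to 1 of 4, and mast cell markers 0 of 4. The part of other cell types in the results below was not tested. Tcf3, which encodes E47, had 2 regions in each list. Since the lists come from pools of cells, fewer cells with an open region and less opening per cell cannot be told apart.

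The distal promoters of the 3 Runx genes are shown because they share their letters around the RUNX motif while differing in accessibility. The sequences are from RefSeq, GRCm38.p6, the assembly of mm10, and run 5′ to 3′ on the gene's strand from 250 bases before the transcript start to 50 bases after it. Capitals mark the 6-letter RUNX core ACCACA, which is TGTGGT on the other strand. Runx1 P1 lies at chr16:92826025-92826324 on the minus strand, Runx2 P1 at chr17:44814578-44814877 on the minus strand and Runx3 P1 at chr4:135120395-135120694 on the plus strand.
Runx1 P1: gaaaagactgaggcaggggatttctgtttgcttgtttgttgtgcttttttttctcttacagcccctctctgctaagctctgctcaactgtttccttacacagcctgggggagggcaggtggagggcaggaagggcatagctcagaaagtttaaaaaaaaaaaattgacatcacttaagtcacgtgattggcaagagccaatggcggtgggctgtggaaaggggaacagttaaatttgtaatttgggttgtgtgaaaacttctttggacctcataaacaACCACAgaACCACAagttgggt
Runx2 P1: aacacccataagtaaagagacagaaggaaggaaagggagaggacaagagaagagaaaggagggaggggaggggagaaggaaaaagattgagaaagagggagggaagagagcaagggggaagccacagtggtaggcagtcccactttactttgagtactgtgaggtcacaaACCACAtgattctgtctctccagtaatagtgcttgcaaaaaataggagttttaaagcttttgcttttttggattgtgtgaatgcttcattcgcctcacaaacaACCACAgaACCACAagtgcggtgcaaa
Runx3 P1: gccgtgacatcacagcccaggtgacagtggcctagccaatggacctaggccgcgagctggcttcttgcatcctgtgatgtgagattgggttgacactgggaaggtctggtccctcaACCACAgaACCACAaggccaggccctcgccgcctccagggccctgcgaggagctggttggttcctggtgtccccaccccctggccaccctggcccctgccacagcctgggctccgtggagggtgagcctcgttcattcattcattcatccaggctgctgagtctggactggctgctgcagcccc

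All 3 windows held the same run of 18 bases, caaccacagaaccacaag, which contains 2 RUNX cores. It began at position 26 from the transcript start in Runx1 P1, at position 21 in Runx2 P1 and at position -136 in Runx3 P1, with the start counted as 0. Among 32851 promoter windows of that length the run was found in 4. The fourth belongs to Gm16225, whose window overlaps that of Runx3 P1 on the other strand. Runx2 P1 held 1 further RUNX core at position -80. The core was present on either strand in 16.8% of all windows, and 1.81% held 2 or more.

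E proteins bind E boxes, which read CANNTG on both strands. Runx1 P1 held 3 E boxes, Runx2 P1 2 and Runx3 P1 1, against 72.3% of all windows with at least 1. In Runx2 P1 both E boxes overlapped a RUNX core. The E box CAGGTG occurred in Runx1 P1 at position -136 and in Runx3 P1 at position -233, and it or CAGCTG was in 32.9% of all windows. The windows of Runx1 P2, 128.7 kb downstream of P1, and of the Cbfb promoter held neither motif. That of Runx3 P2, 31.9 kb downstream of P1, held 1 E box and no RUNX core. These matches are letters in a window and are not evidence of binding.

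The promoters of Runx1, Runx3 and Cbfb were called accessible in all 4 groups, while Runx2 P1 was called in none. Of 21263 protein-coding promoter windows, 48.2% had a region in all 4 lists and 46.7% had none. Values below are the authors' fold enrichment as deposited, with the highest value taken where a region held several peaks. They are ratios without a replicate error.

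At Runx1 P1 (chromosome 16, 92825464 to 92826287) the fold enrichment was 8.81 in E47 cells and 7.28 in GFP cells at 16 h, and 9.11 in E47 cells and 8.06 in GFP cells at 4 h. E47 cells had the higher value at both times, by 1.21 and 1.13 times. At Runx1 P2 (chromosome 16, 92697181 to 92698629) it was 9.20 in E47 cells and 9.06 in GFP cells at 16 h, and 8.18 in E47 cells and 9.88 in GFP cells at 4 h. The vectors thus differed little at the proximal promoter at 16 h, and at 4 h the GFP value was the higher one. Divided by the median ratio over all regions called in both vectors, E47 over GFP at P1 was 1.29 at 16 h and 1.06 at 4 h. At P2 it was then 1.08 at 16 h and 0.777 at 4 h.

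Runx3 P1 (chromosome 4, 135120043 to 135120740) had more than 1.5 times the enrichment of Runx1 P1 in each list. It was 16.7 in E47 cells and 18.0 in GFP cells at 16 h, and 16.8 in E47 cells and 16.2 in GFP cells at 4 h. Runx3 P2 (chromosome 4, 135151999 to 135153250) was lower, at 6.66 in E47 cells and 7.07 in GFP cells at 16 h, and at 7.73 in E47 cells and 7.35 in GFP cells at 4 h. As deposited, the direction between vectors turned with time at both Runx3 promoters, and each ratio lay between 0.926 and 1.05. Over all shared regions the median ratio was itself 0.939 at 16 h and 1.07 at 4 h. Divided by that median, P1 had 0.986 at 16 h and 0.977 at 4 h, so that its direction no longer turned. P2 then had 1.004 at 16 h and 0.985 at 4 h.

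The Cbfb promoter (chromosome 8, 105170014 to 105171828) had 15.2 in E47 cells and 14.4 in GFP cells at 16 h, and 14.0 in E47 cells and 13.7 in GFP cells at 4 h. Divided by the median ratio of all shared regions, E47 over GFP was 1.12 at 16 h and 0.961 at 4 h, so that the direction then turned with time. The peak p-value of the promoter ranked above 89.8% to 92.5% of the regions of each list, which placed it with the strongest calls.

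Runx2 was accessible inside the gene although P1 was not called. The region nearest to P1 (chromosome 17, 44800869 to 44801346) lay 13.6 kb from the transcript start. It was not called in E47 cells at 16 h, against 12.3 in GFP cells at 16 h, and had 6.31 in E47 cells and 8.81 in GFP cells at 4 h. The Runx2 P2 start was not in the promoter table used here. A region 78.3 kb inside the gene, named after its values were seen (chromosome 17, 44735063 to 44736591), was called in all lists with 7.96 in E47 cells and 7.65 in GFP cells at 16 h, and 7.50 in E47 cells and 6.10 in GFP cells at 4 h.

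**Figure D1:**
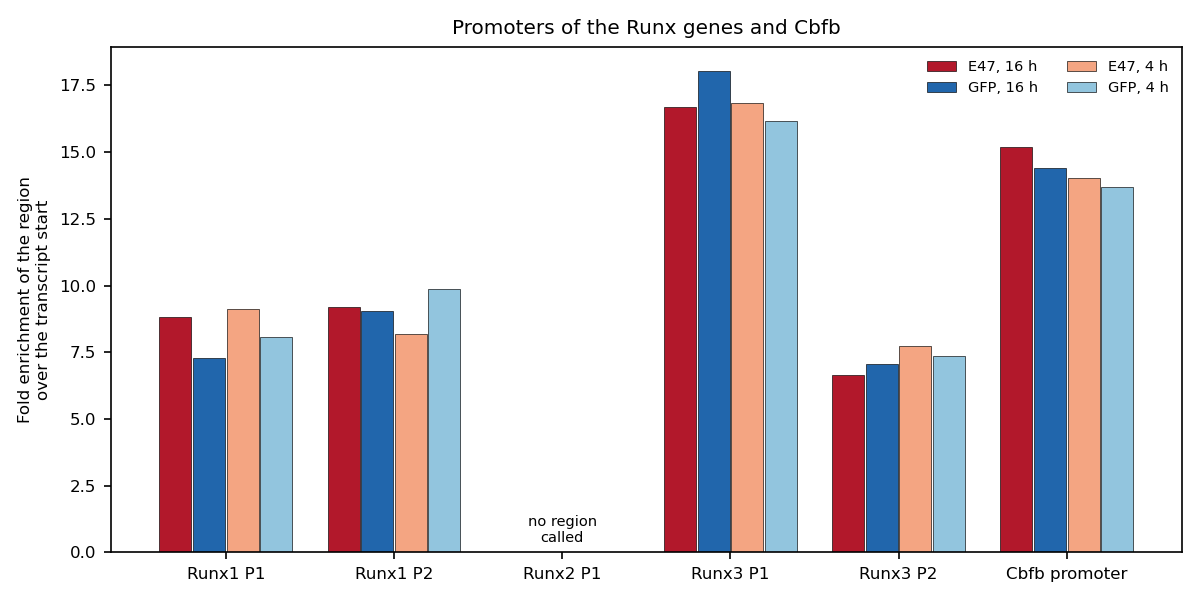
Deposited fold enrichment, a ratio (vertical axis), of the regions at the Runx1, Runx3 and Cbfb promoters, with E47 cells left of GFP cells at 16 h and at 4 h. There is 1 value per list and so no error bar. Runx3 P1 and the Cbfb promoter reach 13.7 or more in each list, and Runx1 P1, Runx1 P2 and Runx3 P2 stay under 10; Runx2 P1 has no region.

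Across the 4 loci, E47 cells at 16 h had the fewest called regions and GFP cells at 16 h the most. Of the 118 regions, 70 (59.3%) were called in E47 cells and 99 (83.9%) in GFP cells at 16 h, and 90 (76.3%) in E47 cells and 82 (69.5%) in GFP cells at 4 h. Over all 60835 regions the share was 62.9% in E47 cells and 81.8% in GFP cells at 16 h, and 77.7% in E47 cells and 66.5% in GFP cells at 4 h. As a whole the 4 loci therefore followed the lengths of the lists.

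The genes differed among themselves. Runx1 had 19 of its 37 regions called in E47 cells and 33 in GFP cells at 16 h, and 28 in E47 cells and 24 in GFP cells at 4 h. Runx2 had 14 of 33 in E47 cells and 26 in GFP cells at 16 h, and 22 in E47 cells and 20 in GFP cells at 4 h. At these genes the E47 list of 16 h was the shortest of the 4. Runx3 had 18 of 26 in E47 cells and 21 in GFP cells at 16 h, and 21 in each at 4 h. Cbfb had 19 of 22 in each at 16 h, and 19 in E47 cells and 17 in GFP cells at 4 h. The number of called regions thus varied less between lists at Runx3 and Cbfb.

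The setting of the genes differed too. Runx1 is 224.6 kb long, and 26 of its regions lay inside the gene; Runx2 is 318.8 kb long, with 27 inside. Runx3 is 57.3 kb long, with 11 inside and 15 outside. Cbfb is 47.3 kb long with 2 regions inside, and its window holds 13 other protein-coding genes, among them E2f4 and Tradd, so that only 3 of its 22 regions had Cbfb as their nearest gene. Within 1 kb of an end of any protein-coding gene lay 1 region in the Runx1 window, 1 at Runx2, 2 at Runx3 and 11 at Cbfb. These were 12.7% of the 118, against 24.1% of all regions. At their own ends, Runx1, Runx3 and Cbfb each had 1 such region and Runx2 had 0. The counts at Runx1 and Runx2 thus concern mostly distal and intragenic regions.

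At 16 h, 106 of the regions were called in E47 cells, in GFP cells or in both. Of these, 7 (6.60%, exact 95% interval 2.70 to 13.1) were called in E47 cells only and 36 (34.0%, 25 to 43.8) in GFP cells only. Over all regions called at 16 h, 8.38% were called in E47 cells only and 29.6% in GFP cells only. Both shares of all regions lay inside the intervals of the Runx and Cbfb regions. These intervals cover counting error only and treat regions as independent, which neighbouring regions are not.

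By gene at 16 h, Runx1 had 1 region called in E47 cells only and 15 (44.1%) in GFP cells only, of 34. Runx2 had 1 and 13 (48.1%) of 27. Runx3 had 3 and 6 (25%) of 24, and the Cbfb window had 2 and 2 (9.52%) of 21. The GFP-only share of Runx1 and Runx2 was above the 29.6% of all regions, that of Runx3 and Cbfb below it. These counts by gene are small, no interval is given for them, and the differences between genes were not tested. Among regions over 1 kb from any gene end, an alternative added after the data were seen, the share was 45.5% at Runx1 and 50% at Runx2, against 35.5% of all such regions. When the longer lists were shortened to the strongest regions, as many as in the shortest list, Runx1 had 3 regions in E47 cells only and 9 in GFP cells only, of 28, and Runx2 had 3 and 5 of 19. Runx3 then had 5 and 2 of 20 and the Cbfb window 3 and 0 of 19, against 15.9% in E47 cells only and 16.6% in GFP cells only among all regions.

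At 4 h, 101 regions were called, 19 (18.8%, 11.7 to 27.8) in E47 cells only and 11 (10.9%, 5.56 to 18.7) in GFP cells only. Over all regions the shares were 22.7% and 9.73%. Runx1 had 7 regions in E47 cells only and 3 in GFP cells only, of 31, and Runx2 had 7 and 5 of 27. Runx3 had 2 and 2 of 23, and the Cbfb window had 3 and 1 of 20. The GFP-only share at 4 h was 9.68% at Runx1, near that of all regions, and 18.5% at Runx2, above it. With lists of equal length the 4 genes had 12 regions in E47 cells only and 12 in GFP cells only, of 89. Runx1 then had 4 and 4 of 27, and Runx2 had 4 and 6 of 23.

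Within E47 cells, 3 of 93 regions were called at 16 h only and 23 at 4 h only (3.23% and 24.7%), against 5.97% and 23.9% of all regions called in E47 cells. At 4 h only, Runx1 had 10 of 29 (34.5%), Runx2 9 of 23 (39.1%), Runx3 3 of 21 (14.3%) and the Cbfb window 1 of 20 (5%). Within GFP cells, 25 of 107 were called at 16 h only and 8 at 4 h only (23.4% and 7.48%), against 23.6% and 6.08% of all regions. In GFP cells at 16 h only, Runx1 had 9 of 33 (27.3%), Runx2 10 of 30 (33.3%), Runx3 3 of 24 (12.5%) and the Cbfb window 3 of 20 (15%). At 4 h only, Runx1 had 0, Runx2 4, Runx3 3 and the Cbfb window 1. The directions over the 4 genes together followed the lengths of the lists. With lists of equal length, 5 of 82 regions of E47 cells were called at 16 h only and 12 at 4 h only, and 5 of 82 regions of GFP cells at 16 h only and 10 at 4 h only, so that the direction in GFP cells turned. Over all regions the shares at 16 h only and at 4 h only were then 11.2% and 12.4% in E47 cells, and 10.6% and 10.9% in GFP cells. Runx2 turned in GFP cells, to 2 and 5 of 21, while Runx1 had 2 and 6 of 25 in E47 cells and 3 and 1 of 26 in GFP cells.

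**Figure D2:**
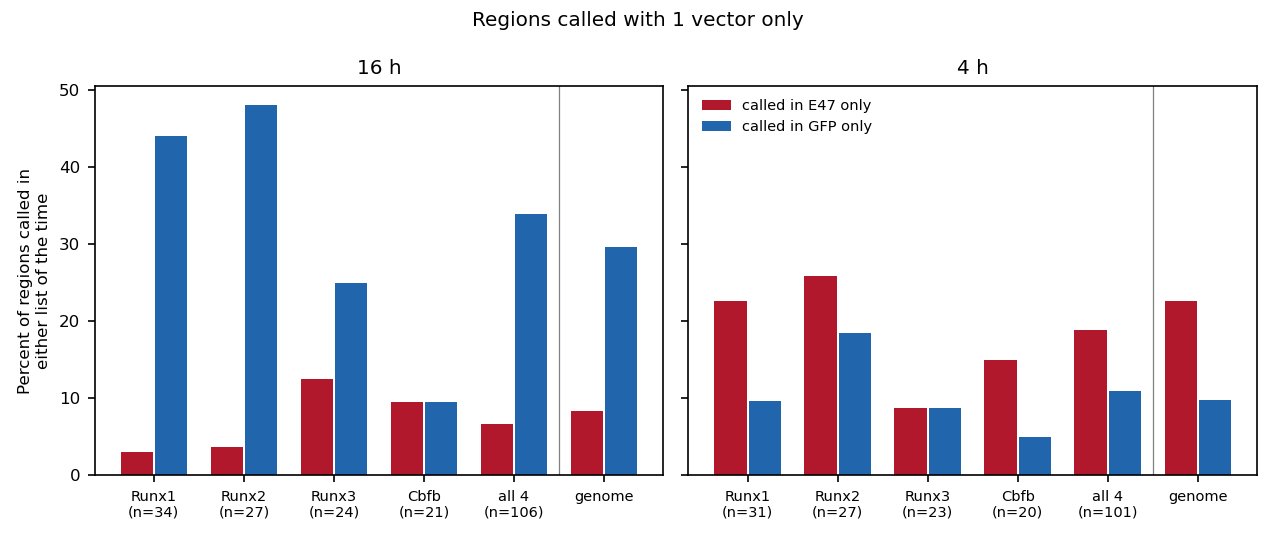
Share of regions, in percent of those called at that time in either vector, called in E47 cells only or in GFP cells only at 16 h and at 4 h, for each gene, the 4 genes together and all regions. At 16 h the GFP-only share is 44.1% at Runx1 and 48.1% at Runx2, against 25% at Runx3, 9.52% in the Cbfb window and 29.6% of all regions.

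The 36 regions called in GFP cells only at 16 h were mostly weak calls. The −log10 p of these regions ranked at a median percentile of 20.3 in their list (0.0539 to 70.0), and 5 of the 36 lay above the middle of it, while all GFP-only regions had a median of 21.7. The 7 E47-only regions ranked at a median of 42.2 (19 to 55.6), against 14.4 for all E47-only regions at 16 h. At 4 h, 16 of the 36 were called in E47 cells (44.4%, against 42.6% of all such regions), and 14 were called in neither group. A missing call does not show that a region was closed.

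A group of 11 regions was called in all lists but that of E47 cells at 16 h, which 6.67% of all regions were. Of these, 6 were at Runx1. The strongest lay 32.1 kb downstream of P1 inside Runx1 (chromosome 16, 92793703 to 92794243) and had no call in E47 cells at 16 h, against 12.1 in GFP cells at 16 h, with 8.14 in E47 cells and 11.0 in GFP cells at 4 h. Its value in E47 cells at 4 h was 0.743 times that in GFP cells, the lowest 4 h ratio at Runx1. The Runx2 region nearest to P1, given above, had the same pattern, and its 4 h ratio of 0.717 was the lowest at any of the 4 genes. The other 5 at Runx1 had between 5.77 and 12.1 in GFP cells at 16 h. At 4 h their values were 4.85 to 10.2 in E47 cells and 4.99 to 10.2 in GFP cells, and which vector had the higher value differed from region to region.

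The reverse pattern, a call in all lists but that of GFP cells at 16 h, applied to 1.44% of all regions and to 2 at the 4 genes, both at Runx3. The stronger, 10.7 kb downstream of Runx3 P1 (chromosome 4, 135131137 to 135131510), had 9.35 in E47 cells and no call in GFP cells at 16 h, and 7.22 in E47 cells and 5.70 in GFP cells at 4 h. Another lay 50.7 kb upstream of Runx3 (chromosome 4, 135069708 to 135070299), with 4.55 in E47 cells and no call in GFP cells at 16 h, and 5.44 in E47 cells and 4.72 in GFP cells at 4 h. Both of these regions were named after their values were seen.

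Calls in 1 vector at both times were few. Of the 118 regions, 5 (4.24%, 1.39 to 9.61) were called in E47 cells only at both times and 6 (5.08%, 1.89 to 10.7) in GFP cells only at both times, against 3.43% and 4.56% of all regions. Called in all 4 lists were 57 (48.3%, 39.0 to 57.7), against 48.8% of all regions. By gene, 15 of 37 regions of Runx1 (40.5%), 11 of 33 of Runx2 (33.3%), 15 of 26 of Runx3 (57.7%) and 16 of 22 in the Cbfb window (72.7%) were in every list.

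The region called in E47 cells only at both times at Runx1 lay 58.1 kb upstream of P1 (chromosome 16, 92883852 to 92884446), with 7.18 at 16 h and 8.36 at 4 h. That at Runx2 lay 79.0 kb upstream, inside the gene Supt3 (chromosome 17, 44893406 to 44893937), with 10.4 at 16 h and 8.09 at 4 h. That at Runx3 lay inside the gene, 16.2 kb downstream of P1 (chromosome 4, 135136664 to 135136999), with 7.76 at 16 h and 6.84 at 4 h. It was the only 1 of the 5 within 50 kb of its gene. The other 2 lay in the Cbfb window nearest to Exoc3l and E2f4, with 4.59 and 5.24 at 16 h and 4.64 and 5.08 at 4 h. GFP cells had no call at these 5 positions at either time.

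Of the 6 regions called in GFP cells only at both times, 3 were at Runx1, 2 at Runx2 and 1 at Runx3. At Runx1 they lay 38.3 kb upstream (chromosome 16, 92864268 to 92864517), with 8.01 at 16 h and 5.69 at 4 h, and inside the gene at 135.2 kb, with 9.65 and 5.25, and at 190.5 kb, with 8.48 and 7.88. All 3 had their higher value at 16 h. At Runx2 they lay inside the gene at 47.1 kb, with 8.72 at 16 h and 6.18 at 4 h, and at 205.7 kb, with 4.53 and 4.29. The Runx3 region lay 8.34 kb downstream of P1 (chromosome 4, 135128853 to 135129047), with 6.55 at 16 h and 5.14 at 4 h. In Runx3, regions called in E47 cells only and in GFP cells only thus lay within 8 kb of each other in the first part of the gene.

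**Figure D3:**
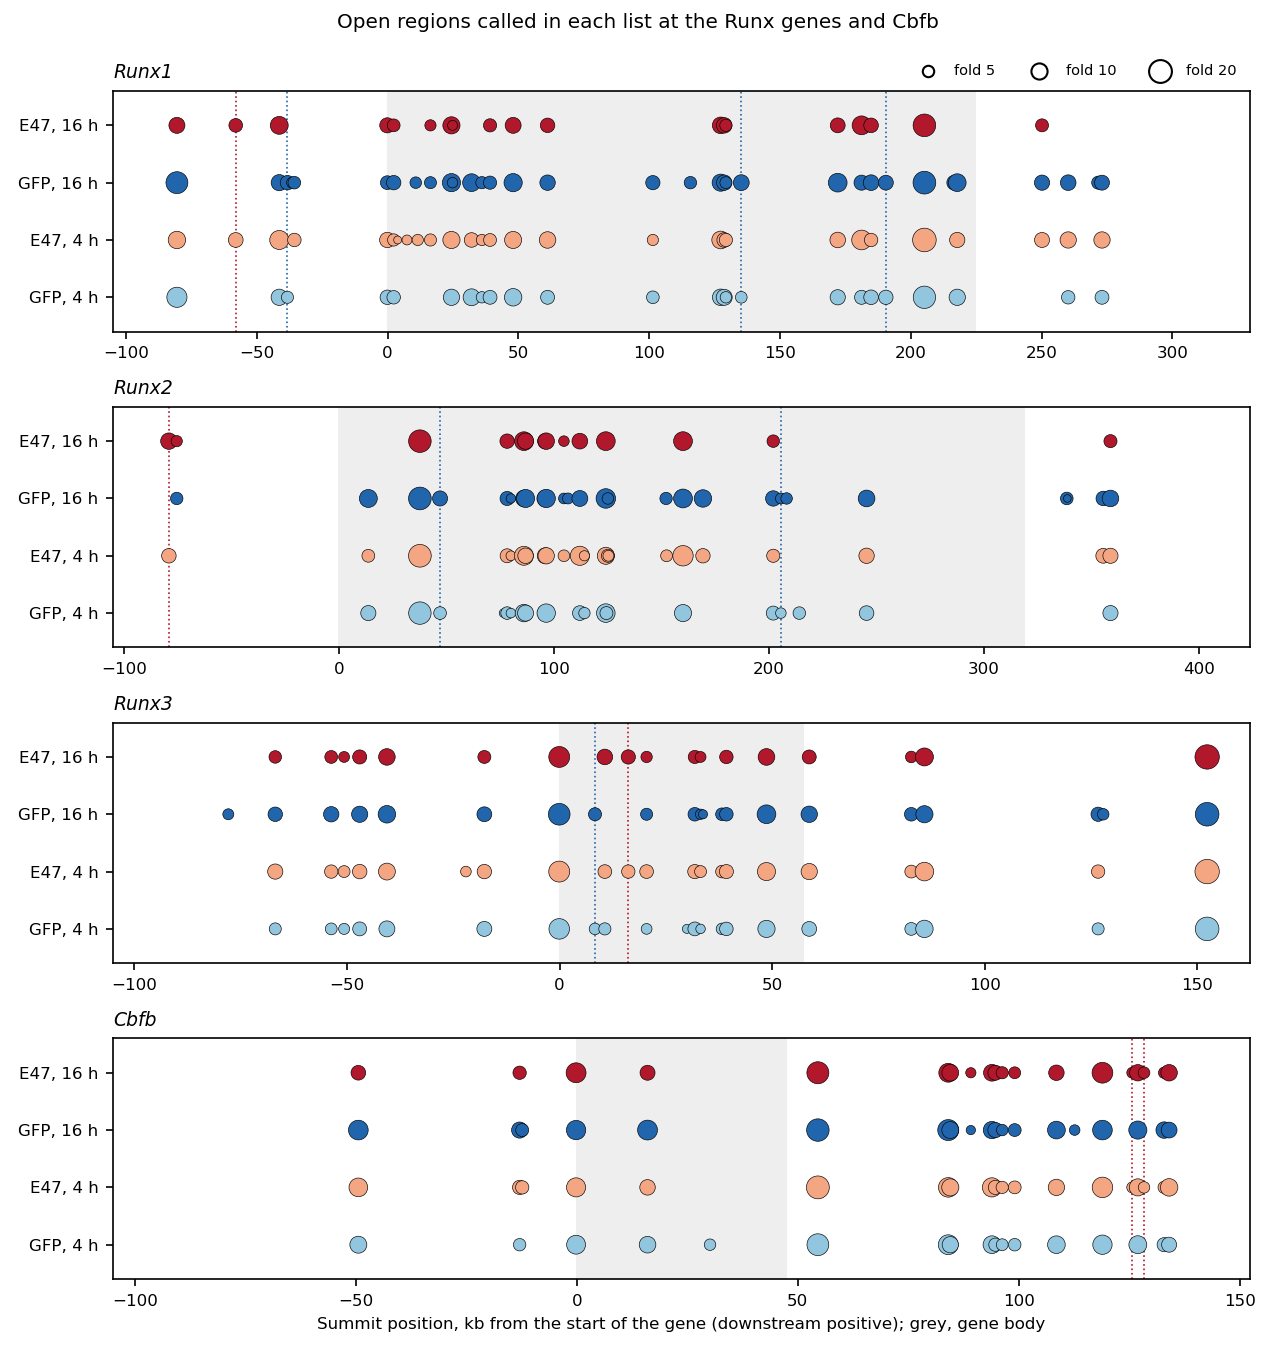
Position of every region at the 4 genes, in kb from the gene start with downstream to the right (horizontal axis), and the list that called it, with E47 cells above GFP cells at 16 h and then at 4 h. Grey shading is the gene body, the area of a point grows with its fold enrichment, and dotted lines mark regions called in E47 cells only (red) or GFP cells only (blue) at both times. Runx1 and Runx2 have most gaps in the list of E47 cells at 16 h, with 19 of 37 and 14 of 33 regions called, while Runx3 has 18 of 26 and the Cbfb window 19 of 22.

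Among regions called in both vectors, most folds differed little. At 16 h the ratio of E47 over GFP had a median of 0.895 over 63 regions (middle 50% from 0.765 to 1.0, whole range 0.480 to 1.56), against 0.939 over all 33682 shared regions. At 4 h the median was 1.08 over 71 regions (middle 50% from 0.928 to 1.21, whole range 0.717 to 1.97), against 1.07 over 35382. Relative to those medians of all regions, 27 regions lay above and 36 below at 16 h, and 39 above and 32 below at 4 h. The median ratio at 16 h was 0.897 at Runx1, 0.926 at Runx2, 0.883 at Runx3 and 0.938 in the Cbfb window. At 4 h it was 1.05 at Runx1, 1.03 at Runx2, 1.14 at Runx3 and 1.09 in the Cbfb window. Above the median of all regions at 4 h lay 10 of 21 at Runx1, 5 of 15 at Runx2, 15 of 19 at Runx3 and 9 of 16 in the Cbfb window. At 16 h these were 8 of 18 at Runx1, 6 of 13 at Runx2, 5 of 15 at Runx3 and 8 of 17 in the Cbfb window. Values of different sizes come from 1 list per group, so the spread that repeated samples would give is unknown.

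After division by the median of all regions, 1 of 63 regions at 16 h was more than 1.5 times higher in E47 cells and 5 were more than 1.5 times lower, or 1.59% and 7.94%, against 1.97% and 5.64% of all regions. Of those 5, 3 were in the Cbfb window. At 4 h, 4 of 71 (5.63%) were more than 1.5 times higher in E47 cells, against 2.63%, and 0 were more than 1.5 times lower, against 2.34%. The 4 were 1 at Runx1, 1 at Runx2 and 2 at Runx3, and those at Runx3 were just past the limit, at 1.52 and 1.5 times. Counted over single summits paired within 150 bp, 3 of 123 (2.44%) were higher in E47 cells at 4 h and 4 (3.25%) lower, against 2.58% and 2.22% of all summits, so that the direction turned.

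The highest ratio at both times belonged to a region inside Runx1, 181.2 kb downstream of P1 (chromosome 16, 92644490 to 92645143). It had 13.7 in E47 cells and 8.74 in GFP cells at 16 h, and 14.9 in E47 cells and 7.56 in GFP cells at 4 h. The ratio was 1.56 at 16 h and 1.97 at 4 h, so that E47 cells had the higher value at both times. Opposite to it, a region 80.6 kb upstream of Runx1 (chromosome 16, 92906487 to 92906769) had 9.87 in E47 cells and 18.4 in GFP cells at 16 h, and 11.7 in E47 cells and 15.6 in GFP cells at 4 h. Its ratio of 0.536 at 16 h was the lowest at Runx1, and it was 0.750 at 4 h. The strongest region of the gene, at 205.2 kb (chromosome 16, 92620517 to 92621580), had 19.7 in E47 cells and 19.9 in GFP cells at 16 h, and 21.4 in E47 cells and 19.1 in GFP cells at 4 h. The regions with the highest and the lowest ratio were named by rule, so opposite directions follow largely from that choice. Strong regions differed little over all regions too. Among all regions above the median strength of their list, 0.303% were more than 1.5 times higher in E47 cells at 16 h and 1.22% lower. Without that restriction the shares were 1.97% and 5.64%.

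At Runx2 the strongest region, 37.7 kb downstream (chromosome 17, 44776636 to 44777853), had 19.5 in E47 cells and 19.7 in GFP cells at 16 h, and 19.8 in E47 cells and 19.3 in GFP cells at 4 h. The summit of this region lay 65 bases from an end of another protein-coding gene. A region at 112.2 kb (chromosome 17, 44702132 to 44703322) had 9.51 in E47 cells and 9.73 in GFP cells at 16 h, but 14.1 in E47 cells and 8.28 in GFP cells at 4 h. Its ratio of 1.70 at 4 h was the highest at Runx2, and that at 16 h was 0.977. The highest 16 h ratio, 1.29, was at 86.1 kb, with 13.5 in E47 cells and 10.4 in GFP cells. The lowest, 0.620, was 40.2 kb past the gene's end (chromosome 17, 44455751 to 44455949), where the values were 6.57 in E47 cells and 10.6 in GFP cells at 16 h and 8.82 in each at 4 h.

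At Runx3 the highest 4 h ratio, 1.62, was at 20.5 kb inside the gene (chromosome 4, 135140710 to 135141274). It had 4.95 in E47 cells and 5.60 in GFP cells at 16 h, and 7.20 in E47 cells and 4.45 in GFP cells at 4 h. The lowest 16 h ratio, 0.698, was 53.7 kb upstream (chromosome 4, 135066831 to 135067421), with 6.33 in E47 cells and 9.07 in GFP cells at 16 h, and 6.85 in E47 cells and 5.37 in GFP cells at 4 h. Both regions had the higher value in GFP cells at 16 h and in E47 cells at 4 h. The highest 16 h ratio at Runx3 was 1.12, at 33.2 kb. The lowest 4 h ratio at Runx3, 0.925, was 17.7 kb upstream, with 7.97 in E47 cells and 8.62 in GFP cells. The region of the window with the strongest rank lay 152.3 kb downstream, next to Clic4, with 22.8 in E47 cells and 21.4 in GFP cells at each time.

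Inside Cbfb the region 16.0 kb downstream of the start, named after its values were seen (chromosome 8, 105186411 to 105186999) had 8.64 in E47 cells and 15.1 in GFP cells at 16 h, a ratio of 0.571. At 4 h it had 9.22 in E47 cells and 10.6 in GFP cells, a ratio of 0.869. The promoter had a ratio of 1.06 at 16 h. Upstream of the gene, 2 regions nearest to Ces4a, also named after their values were seen, had ratios of 0.557 at 49.5 kb, with 8.28 in E47 cells and 14.9 in GFP cells, and 0.686 at 13.0 kb, with 6.83 in E47 cells and 9.96 in GFP cells. Since these regions were named after their values were seen, where they lie around the promoter is not a result. Of the 17 regions of the window called in both vectors at 16 h, 8 lay above the median ratio of all regions and 9 below it. At 4 h both upstream regions had the higher value in E47 cells, with ratios of 1.215 at 49.5 kb and 1.31 at 13.0 kb. The lowest 16 h ratio of the window, 0.480, lay nearest to E2f4 (chromosome 8, 105303432 to 105303713), with 4.98 in E47 cells and 10.4 in GFP cells. The highest was 1.21, near Tradd. At 4 h the same region nearest to E2f4 had the lowest ratio of the window, 0.753. The highest 4 h ratio, 1.36, was at 134.04 kb, also nearest to E2f4. The strongest region of the window by rank lay at 118.95 kb, nearest to 4931428F04Rik. It had 16.5 in E47 cells and 14.8 in GFP cells at 16 h, and 16.1 in E47 cells and 14.3 in GFP cells at 4 h.

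**Figure D4:**
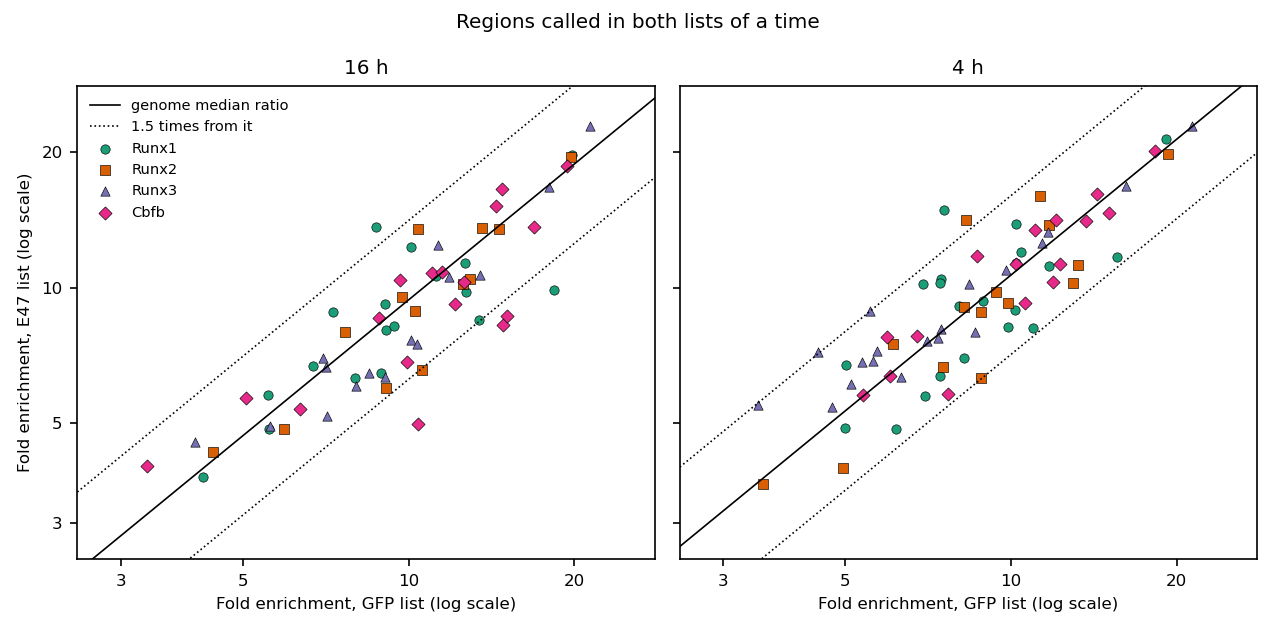
Fold enrichment in E47 cells against that in GFP cells, both as deposited ratios on log axes, for the Runx and Cbfb regions called in both vectors at 16 h and at 4 h, coloured by gene. At 16 h 36 of 63 regions lie below the median ratio of all regions, and at 4 h 39 of 71 lie above it; the region 181.2 kb inside Runx1 is the highest in ratio at both times.

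The last region inside the rule's limit of 100 kb lay 80.6 kb from Runx1, 79.0 kb from Runx2, 95 kb from Runx3 and 86.7 kb from Cbfb. The first one outside, on either side of the gene, lay 118.0 kb from Runx1, 127.8 kb from Runx2, 101.3 kb from Runx3 and 108.2 kb from Cbfb. Those left out at Runx3 and Cbfb were called in all 4 lists, with 10.9 to 14.0 at Runx3 and 18.2 to 20.4 at Cbfb. Those at Runx1 and Runx2 were called in 2 lists each.

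The genes whose regions fell most alike over the 15 possible combinations of lists were Dock10, Elf1 and Creb3l2 for Runx1. They shared 87.4%, 86.1% and 85.3% of the distribution over combinations, against a median of 73.8% over 339 genes with a similar number of nearest regions. For Runx2 they were Prep, Ywhaz and Rap1b at 82.7%, 82.6% and 82.4%, against a median of 68.3% over 390 genes. For Runx3 they were Atg10, Eri1 and Pitpnc1 at 88.6%, 87.0% and 86.0%, against a median of 65.9% over 994 genes. The named genes were picked as the highest of the same genes that gave each median, so lying above it was fixed by the choice. These likenesses are over 4 lists and are descriptions.

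The partners of RUNX proteins were read in the same way, by the nearest gene of each region. Of 24 partner and corepressor genes with regions, 8 (33.3%) had a region called in E47 cells only at both times and 3 (12.5%) one called in GFP cells only at both times. Over 14996 genes the shares were 11.0% and 13.7%, but the partners had a median of 3 regions per gene against 2. By region, 12 of 191 (6.28%) were called in E47 cells only at both times and 4 (2.09%) in GFP cells only, against 3.40% and 4.41% of 58046. Cbfa2t3, which encodes a corepressor of the ETO family, had 3 E47-only regions, and Ets1, a partner that binds DNA beside RUNX1, had 2. Kat6a, which encodes an acetyltransferase coactivator, had 2 in E47 cells only and 2 in GFP cells only.

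Of 30 genes known as RUNX targets in lymphoid cells, 26 were the nearest gene of at least 1 region. Cd4 was not among the 26, although every list had a call within 1 kb of its ends. Of the 26, 7 (26.9%) had a region called in E47 cells only at both times and 3 (11.5%) in GFP cells only. Over all genes the shares were 11.0% and 13.7%, and these targets too had a median of 3 regions per gene against 2. By region these were 12 of 153 (7.84%) and 4 (2.61%), against 3.40% and 4.41% of all regions. Tgfbr2, which encodes a TGF-β receptor chain, had 4 E47-only regions, and Ccr9, a chemokine receptor gene of thymocytes, had 2. Bcl11b, which encodes a T cell transcription factor, had 2 in E47 cells only and 2 in GFP cells only. Taken at 16 h alone, 27 of the 153 regions were called in E47 cells only and 29 in GFP cells only. At 4 h alone the counts were 39 and 10. Both gene lists were chosen with earlier results of these data known, so their direction is not independent evidence.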

How the data were processed

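ATAC-seq libraries of 8 samples in 4 groups were represented by 1 deposited peak list per group, in narrowPeak format, with both samples of a group combined through an IDR analysis, per the file names in the labels. In these files the authors gave for each peak the fold enrichment (a ratio), the −log10 p and −log10 q, and a score. The score and q were not used here. The submitters' processing notes name cutadapt, Bowtie2, MACS2, DiffBind and the build mm10. Versions, settings and the treatment of Tn5 offsets are not stated in the sources used here. No deposited −log10 p was under 2.00, so a region without a call may lie just under the authors' threshold.

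Overlapping peaks of a list were merged into regions, keeping the highest fold and −log10 p, and regions of the 4 lists that overlapped by at least 1 bp were joined. A region's strength was the percentile of its −log10 p in its list. Ratios of E47 over GFP fold were divided by the median over all shared regions before the 1.5 limit was applied. Every share was computed over all regions as well. Exact (Clopper-Pearson) 95% intervals cover counting error only. Gene bodies and promoter windows came from RefSeq GRCm38.p6. The table gives no exons, so exonic and intronic positions are not separated.

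The genes, lists and named regions were chosen with earlier results of these data known. The regions named for each gene were those at its ends, the strongest by rank, those called in both lists of 1 vector only, and the highest and lowest ratio at each time. A few others are marked as named after their values were seen. 9 alternatives were planned and 2 were added after the data were seen. The code, tested on simulated data, ran under Python 3.11.15 with scipy 1.17.1 for the intervals, pandas 2.3.3 and numpy 2.4.6 for tables, and matplotlib 3.10.9 for figures.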

Additional observations from a re-analysis of the deposited data

Results flagged for a closer look

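Runx1 and Runx2 changed the direction of their call difference between the times. At Runx1 the regions called in E47 cells only minus those called in GFP cells only came to -14 at 16 h and 4 at 4 h, a difference of -18 between the times. At Runx2 they came to -12 at 16 h and 2 at 4 h, a difference of -14. The change between times was not tested, since each group has 1 list. Over all regions the same count was -11518 at 16 h and 6768 at 4 h, and over the 4 genes together -29 and 8. With lists of equal length the change was smaller at Runx1 and ended at Runx2. Runx1 then had 3 regions in E47 cells only and 9 in GFP cells only at 16 h, and 4 and 4 at 4 h. Runx2 had 3 and 5 at 16 h, and 4 and 6 at 4 h, with more GFP-only regions at both times. The 4 genes together had 14 and 16 at 16 h, and 12 and 12 at 4 h.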

How the results depend on the processing

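The 15 shares and ratio counts over the 4 genes were recomputed under 11 alternatives. Of these values, 155 stayed within the exact interval of the reported one and 10 left it. With each list shortened to the length of the shortest, the E47-only share at 16 h was 16.3% and the GFP-only share 18.6%, against 15.9% and 16.6% of all regions. The share of regions of E47 cells called at 4 h only was 14.6%, and that of GFP cells called at 16 h only was 6.10%, against 12.4% and 10.6% of all regions. Read as pairs, 2 comparisons over the 4 genes turned their direction: in GFP cells 5 regions were called at 16 h only and 10 at 4 h only with equal lengths, and over single summits at 4 h 3 were higher and 4 lower in E47 cells. At 4 h the E47-only and GFP-only counts were level with equal lengths (12 each) and with a window of 5 kb (10 each). With a window of 50 kb the E47-only share was 2.33% at 16 h and 1.02% at both times. Above the median strength of each list, the GFP-only share at 4 h was 4.26%, the share of GFP cells at 4 h only was 0%, and no region passed the 1.5 limit at 16 h in either direction, with 0% higher and 0% lower in E47 cells. Gene by gene, 568 values stayed within their interval and 77 did not. The cause of these shifts was not tested, apart from the shorter lists and windows that define them. Read depth is unknown and limits every missing call. No paired analysis was possible because each group has 1 list that already joins both samples, and for the same reason no replicate could be left out.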
